A study of Mus musculus with 8 samples.

Results

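Nucleotide synthesis was followed through 9 genes, Rrm1, Rrm2, Rrm2b, Tyms, Tk1, Dut, Umps, Cad and Impdh2, taken by symbol from the 31053 genes of the deposited count matrices. All 9 had enough counts to be tested, among 15810 tested genes. The measurements came from single-cell RNA-seq of SN4741 in 8 libraries, 4 from cells at 37 °C in 10% fetal bovine serum and 4 from cells given 0.5% serum at 39 °C for 48 hours. SN4741 is a wild-type mouse neural precursor line, per its labels, immortalised by a T antigen that works at 37 °C and is meant to fail at 39 °C, and both groups carry it. Temperature and serum changed together and cannot be told apart, and "39 °C" below stands for both. The labels do not say whether replicates came from separate cultures, so p-values measure the spread between these libraries. Of 8 neural precursor markers, 4 (Nes, Sox2, Notch1 and Vim) reached 1 CPM (counts per 1000000 counts) and 4 (Sox1, Pax6, Msi1 and Fabp7) did not.

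After the study's limits on mitochondrial share and gene number, 18351 of 19125 cell barcodes were kept, 985 to 3494 per library, with 17166686 to 29633818 unique molecular identifiers (UMIs, each standing for 1 captured transcript molecule) per library. The median cell held 6676 to 16665 UMIs. Pairs of libraries shared at most 5 barcodes. Cells were assigned to phases of the division cycle with marker lists from which Tyms, Rrm1 and Rrm2 had been taken out. G1 held 23.8% ± 3.29 (SD, n = 4) of the cells of a library at 37 °C and 84.1% ± 1.28 at 39 °C, S held 40.5% and 11.6%, and G2M held 35.7% and 4.31%. Summed over a library, fewer cells in a phase and less RNA per cell cannot be told apart. Markers of mesenchymal cells moved too: 4 of 8 reached 1 CPM, and their summed level was 1752 to 1819 CPM at 37 °C and 824 to 857 CPM at 39 °C. Their part in the results was not tested. Neuronal markers, 3 of 8 at 1 CPM and Dcx at 0, summed to 165 to 194 and 79.3 to 97.7 CPM. Immune markers summed to 16.1 to 19.2 and 28.1 to 36.5 CPM, with 2 of 6 at 1 CPM, and endothelial markers to under 1 CPM in every library.

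DNA is built from deoxynucleotides, and a cell that copies its genome must raise their supply. Ribonucleotide reductase makes them from ribonucleotides with a large subunit, Rrm1, and one of a pair of small subunits: Rrm2, made in dividing cells, or Rrm2b, a p53 target that serves DNA repair and mitochondrial DNA in resting cells. Thymidylate is made by Tyms from dUMP or by Tk1 from thymidine, and Dut turns dUTP into dUMP, which keeps uracil out of DNA. Cad carries out the first steps of pyrimidine synthesis and Umps the last steps to UMP, while Impdh2 commits IMP to guanine nucleotides. Tk1, Tyms, Rrm2 and Dut are textbook genes of the G1 to S transition.

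The bases before the transcription starts of Rrm1 and Rrm2, of Tk1, which had the largest fall of the 9, and of Umps and Cad, which moved in opposite directions, are shown as the sequence context of these differences. They come from RefSeq (GRCm38.p6), which gave a window of 250 bases for 8 of the 9 genes. Bases inside the gene as GENCODE annotates it were cut off, which shortened Rrm2 to 237 and Tk1 to 172 bases. Each runs 5′ to 3′ on the strand of its gene. Capitals mark a CCAAT box or an E2F core, which was searched on both strands as TTCCCGC, as the form TTGGCGC, as the form TTCGCGC and as the form TTGCCGC.
Rrm1 (chr7:102441445-102441694, plus strand): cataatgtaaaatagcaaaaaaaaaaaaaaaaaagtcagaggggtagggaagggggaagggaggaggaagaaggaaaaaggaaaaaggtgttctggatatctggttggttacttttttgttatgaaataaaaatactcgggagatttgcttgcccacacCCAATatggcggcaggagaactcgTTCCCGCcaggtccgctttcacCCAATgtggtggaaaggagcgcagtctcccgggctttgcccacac
Rrm2 (chr12:24708004-24708240, plus strand): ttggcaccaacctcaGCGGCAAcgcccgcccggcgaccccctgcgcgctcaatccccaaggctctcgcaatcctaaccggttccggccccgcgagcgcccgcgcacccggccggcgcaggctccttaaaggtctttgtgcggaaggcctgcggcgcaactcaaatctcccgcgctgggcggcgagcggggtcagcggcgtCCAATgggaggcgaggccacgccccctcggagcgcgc
Tk1 (chr11:117826093-117826264, minus strand): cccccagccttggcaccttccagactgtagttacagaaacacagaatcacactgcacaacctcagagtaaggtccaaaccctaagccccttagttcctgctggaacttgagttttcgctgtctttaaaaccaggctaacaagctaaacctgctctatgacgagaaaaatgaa
Umps (chr16:33967039-33967288, minus strand): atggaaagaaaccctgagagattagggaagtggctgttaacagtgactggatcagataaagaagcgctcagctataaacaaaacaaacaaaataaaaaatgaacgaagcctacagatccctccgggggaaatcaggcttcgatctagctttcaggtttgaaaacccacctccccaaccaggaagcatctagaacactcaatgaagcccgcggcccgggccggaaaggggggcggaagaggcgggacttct
Cad (chr5:31054530-31054779, plus strand): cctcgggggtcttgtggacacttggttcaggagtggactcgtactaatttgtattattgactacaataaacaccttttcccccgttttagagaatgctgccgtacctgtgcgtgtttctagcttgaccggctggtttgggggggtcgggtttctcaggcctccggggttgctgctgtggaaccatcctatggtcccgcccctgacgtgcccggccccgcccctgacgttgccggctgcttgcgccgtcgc

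An E2F core lay in 2 of the 8 full windows, in Rrm1 67 to 61 bases before the start and in Rrm2 235 to 229 bases before it on the other strand, against 7.89% of 32851 promoters of the same length. The same 2 windows held CCAAT boxes, which 33.8% of promoters held. The E-box CACGTG was in the windows of Tyms and Impdh2 and in 6.02% of promoters. These are matches of letters, not measured binding sites. No window of Tk1, Dut, Umps or Cad held any of the 3 motifs.

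All 9 genes differed between the temperatures in summed counts of all kept cells, 7 lower and 2 higher at 39 °C, and for each of the 9 the 4 libraries of one temperature stood clear of those of the other. A gene passed at an adjusted p under 0.05 (edgeR's quasi-likelihood test, Benjamini-Hochberg over all tested genes) and was called when the adjusted p was also under 0.01 and the log2 fold change over 1.5 in size. Of all tested genes, 30.5% passed as lower and 31.5% as higher, and 28% and 28.7% did not overlap in those directions, so passing was common in this comparison. Tyms, Tk1 and Dut were called lower, a call that 3.62% of tested genes received, and no member was called higher, which 2.21% were. The median log2 fold change of the 9 was -1.02, against 0.02 over all tested genes. Leaving out any library left these counts as they were.

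The subunits of ribonucleotide reductase did not move together. Rrm1 (chr7:102441695-102469771, plus strand, GRCm38), the large subunit, stood at 126, 132, 126 and 130.5 CPM in replicates 1 to 4 at 37 °C and at 51.9, 50.9, 51.4 and 50.1 CPM at 39 °C. It fell 2.52-fold (log2 fold change -1.33 ± 0.04 SE, adjusted p = 3.83e-15), with a narrow spread in both groups. Rrm2 (chr12:24708241-24714146, plus strand), the small subunit of dividing cells, was 90.5, 103, 106 and 105 CPM at 37 °C and 48.7, 45.7, 52.7 and 51.6 CPM at 39 °C. It fell 2.03-fold (-1.02 ± 0.06, adjusted p = 1.04e-11). Rrm2b (chr15:37923952-37961318, minus strand), the small subunit of resting cells, went the other way. Its level was 26.4, 22, 22.3 and 22.2 CPM at 37 °C and 36.8, 39.4, 39.0 and 36.6 CPM at 39 °C, a rise of 1.64-fold (0.71 ± 0.06, adjusted p = 3.41e-09).

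The genes of thymidylate supply fell furthest. Tyms (chr5:30058202-30073617, minus strand), the thymidylate synthase, was 125, 148, 144 and 150.0 CPM at 37 °C and 46.4, 42.0, 42.4 and 44.6 CPM at 39 °C (-1.69 ± 0.06, adjusted p = 8.94e-15). Tk1 (chr11:117815526-117826092, minus strand), the cytosolic thymidine kinase, was 74.7, 87.7, 93.8 and 98.2 CPM at 37 °C and 9.76, 10.2, 10.4 and 11.9 CPM at 39 °C. Its fall of 8.34-fold (-3.06 ± 0.08, adjusted p = 2.34e-16) was the largest of the 9. Dut (chr2:125247190-125258608, plus strand), the dUTP pyrophosphatase, was 153, 169, 170.0 and 177 CPM at 37 °C and 45.8, 50.8, 52.8 and 57.9 CPM at 39 °C (-1.69 ± 0.06, adjusted p = 2.86e-14). In Tyms, Tk1 and Dut alike the lowest library at 37 °C was replicate 1, and it still lay above every library at 39 °C.

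The base-synthesis genes moved less, and the pyrimidine pair split. Cad (chr5:31054780-31078479, plus strand), the enzyme of the first pyrimidine steps, was 49.3, 45.8, 49.6 and 52.3 CPM at 37 °C and 67.4, 70.7, 67.1 and 67.4 CPM at 39 °C, a rise of 1.38-fold (0.47 ± 0.05, adjusted p = 5.62e-08). Umps (chr16:33954782-33967038, minus strand), the enzyme of the last steps to UMP, was 64.5, 73.4, 68.9 and 75.7 CPM at 37 °C and 36.9, 36.1, 36.2 and 36.3 CPM at 39 °C, a fall of 1.94-fold (-0.96 ± 0.05, adjusted p = 6.53e-12). The count of Cad per count of Umps was accordingly 0.624 to 0.764 in the 37 °C libraries and 1.82 to 1.96 in the 39 °C libraries. Impdh2 (chr9:108560286-108565584, plus strand), the guanine branch enzyme, was 145, 156, 160.0 and 168 CPM at 37 °C and 95.0, 99.9, 93.6 and 94.8 CPM at 39 °C (-0.71 ± 0.05, adjusted p = 3.08e-10). Genes on the opposite strand overlap Rrm2b (Gm49085), Tk1 (Gm20708 and Afmid), Umps (Gm15829) and Impdh2 (Ndufaf3), and the strand setting of the counting is not given in the sources used here.

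**Figure D1:**
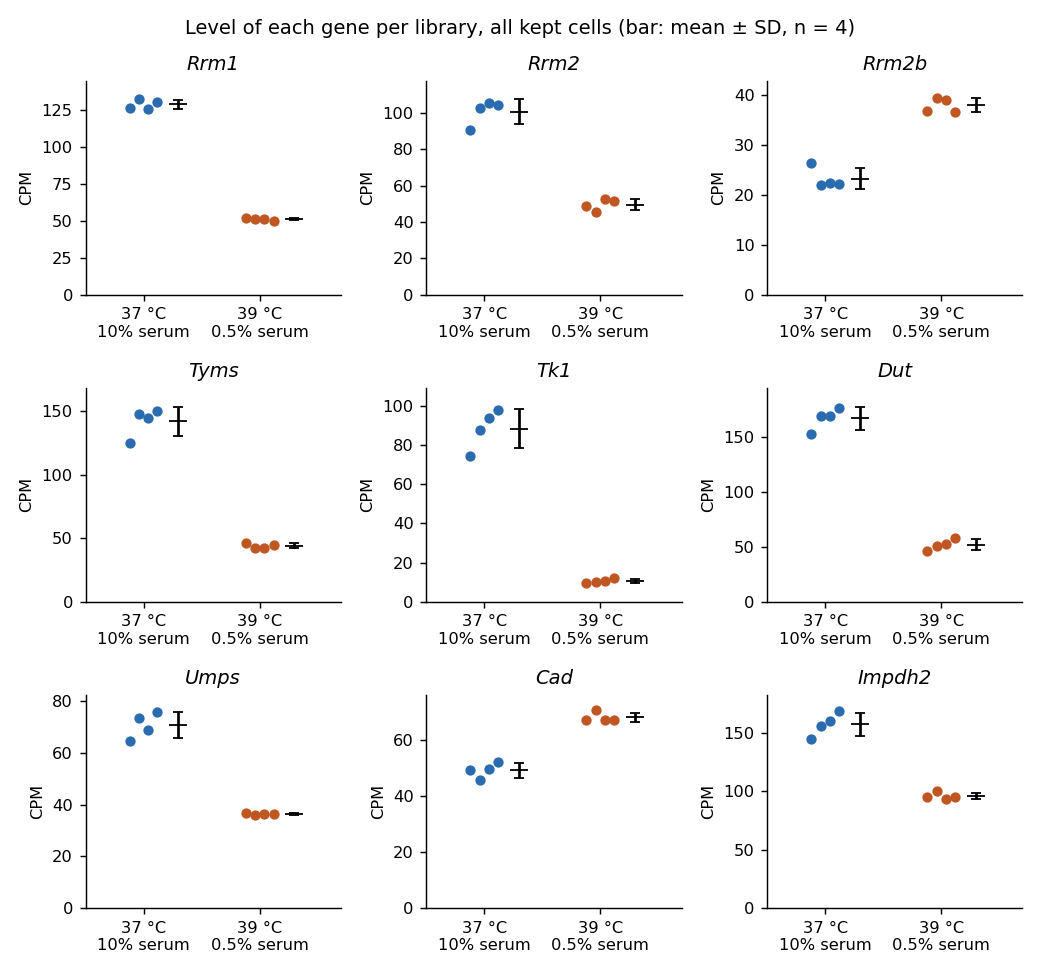
Level of each gene (y axis, CPM from 0) in each library of all kept cells at 37 °C in 10% serum and 39 °C in 0.5% serum; points are libraries and the black bar is the mean ± SD (n = 4). Rrm2b and Cad lie higher at 39 °C and the other 7 genes lower, with Tk1 falling from 88.6 to 10.6 CPM on average.

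Because the cultures held different shares of each phase, levels were also taken phase by phase. At 37 °C, Tk1 had the steepest step from G1 to S among the 9: the level in S was 7.6 to 9.92 times that in G1 of the same library, against 3.53 to 5.53 times for Rrm2, 3.73 to 4.02 times for Tyms and 1.17 to 1.33 times for Cad. Rrm2 (1.32 to 1.41 times) and Rrm1 (1.005 to 1.14 times) were higher in G2M than in S in all 4 libraries. Tyms, Dut, Umps and Impdh2 were higher in S than in G2M in all 4. Rrm2b was the exception, with a level in S of 0.762 to 1.01 times that in G1. At 39 °C the step of Tk1 was steeper (15.9 to 17.5 times) and that of Rrm2 shallower (1.33 to 1.85 times). These ratios describe the libraries and carry no test. Cells given the same phase were not alike in their scores: the median S score of G1 cells was -0.115 to -0.107 at 37 °C and -0.179 to -0.159 at 39 °C, and that of S cells was 0.196 to 0.234 and 0.0845 to 0.113. The part of these score differences in the values by phase was not tested.

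**Figure D2:**
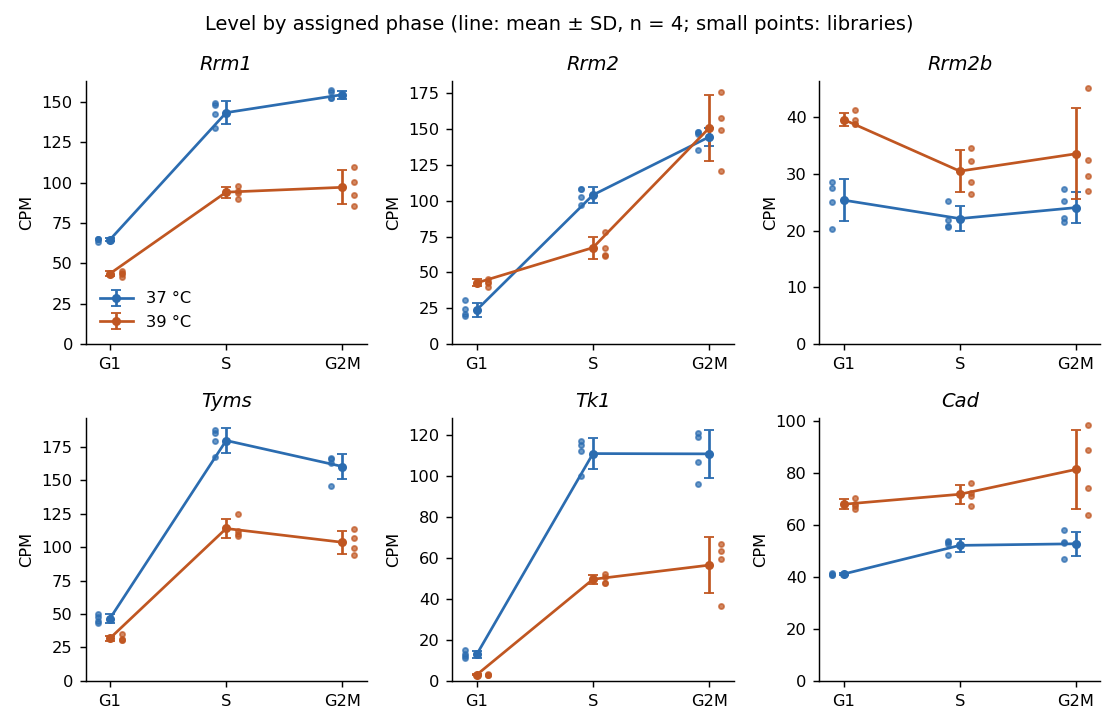
Level (y axis, CPM from 0) of 6 of the genes by assigned phase (x axis) at 37 °C (blue) and 39 °C (orange); large points and bars are the mean ± SD (n = 4) and small points the libraries. Rrm2 at 39 °C starts above its 37 °C level in G1, lies below it in S and meets it in G2M (CPM scaled within each phase).

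In G1 cells Rrm2 was higher at 39 °C, opposite to its direction in all cells. It was 21.0, 19.6, 30.8 and 24.2 CPM in the 37 °C libraries and 43.2, 39.7, 45.6 and 42.3 CPM in the 39 °C libraries, a rise of 1.79-fold (0.84 ± 0.09, adjusted p = 7.92e-08) with no overlap. Rrm2b (25.4 ± 3.69 against 39.6 ± 1.14 CPM, SD, n = 4, 0.63 ± 0.08) and Cad (41.1 ± 0.471 against 68.0 ± 1.89 CPM, 0.73 ± 0.06) were higher as well. These 3 of 9 compare with 24.6% of 14698 tested genes that passed as higher, and the 6 lower members with 22.4%. No member's groups overlapped, where 23.8% of genes stood apart as higher and 20.1% as lower. Tk1 again fell furthest, from 13.2, 11.3, 12.3 and 15 CPM to 3.29, 2.98, 2.71 and 2.97 CPM (-2.12 ± 0.13, adjusted p = 6.1e-12), and was the 1 member called, where 1.53% of genes were called lower and 0.987% higher. Dut (-0.94 ± 0.06), Rrm1 (-0.57 ± 0.05), Tyms (-0.55 ± 0.07), Umps (-0.50 ± 0.06) and Impdh2 (-0.43 ± 0.06) fell less than in all cells. With scores computed in each library by itself the directions held and sizes moved: 0.42 for Rrm2, -0.96 for Rrm1, -1.17 for Tyms, -3.49 for Tk1 and -0.81 for Umps.

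In S cells all 9 passed, 7 lower and 2 higher, against 23.3% and 20.3% of 13749 tested genes, and none had overlapping groups, against 22.6% and 17.9% of genes that stood apart as lower and higher. None was called, where 0.967% of genes were called lower and 1.35% higher. Tk1 fell from 110.8 ± 7.69 to 49.6 ± 2.14 CPM (SD, n = 4, log2 fold change -1.17 ± 0.08 SE), and Dut from 235 ± 7.98 to 128 ± 13.7 CPM (-0.87 ± 0.07). Rrm2 was 97.2, 108, 108 and 102 CPM at 37 °C and 62.2, 67.2, 61.5 and 78.2 CPM at 39 °C (-0.62 ± 0.07, adjusted p = 6e-08), so in S it was lower in every 39 °C library. Rrm1 (-0.61), Tyms (-0.66), Umps (-0.69) and Impdh2 (-0.51) fell by similar sizes. Cad rose (0.46 ± 0.07), as did Rrm2b (0.47 ± 0.11), but with each cell thinned to 3000 UMIs Rrm2b no longer passed (0.33, adjusted p = 0.174). With scores within each library, Tyms (-1.52), Tk1 (-2.49) and Dut (-1.64) were called in S, and Rrm2 (-1.38), Rrm1 (-1.16) and Impdh2 (-0.80) moved by over 1.5 times. Under those scores 336 of 13965 tested genes were called lower, against 133 of 13749 with joint scores.

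G2M at 39 °C was the thinnest comparison, with 31 to 179 cells per library. There 6 members fell and 2 rose, against 16.9% and 13.2% of 13807 tested genes. The groups did not overlap for those 6 and for Cad, against 20.8% and 12.1% of genes, and no member was called, where 0.775% of genes were called lower and 1.11% higher. Rrm2 did not pass: it was 135, 147, 148 and 148 CPM at 37 °C and 176, 120.4, 158 and 149 CPM at 39 °C (0.04 ± 0.09, adjusted p = 0.798), and the groups overlapped. Tk1 (-0.89 ± 0.11), Rrm1 (-0.69 ± 0.09), Dut (-0.64 ± 0.10), Tyms (-0.61 ± 0.09), Impdh2 (-0.59 ± 0.09) and Umps (-0.44 ± 0.11) fell, and Cad rose (0.56 ± 0.11). Rrm2b rose (0.55 ± 0.15, adjusted p = 0.00299) with overlapping groups, and neither without 39 °C replicate 3 (0.34, adjusted p = 0.16) nor after thinning (0.30, adjusted p = 0.511) did it pass, while Umps was lost after thinning (-0.39, adjusted p = 0.163). With scores within each library, Rrm2 was lower (-0.82, adjusted p = 8.06e-10) and Tyms (-1.60) and Tk1 (-2.59) were called, while Rrm1 (-1.39), Dut (-1.47) and Umps (-0.75) moved by over 1.5 times. Under those scores 439 of 13961 tested genes were called lower, against 107 of 13807 with joint scores.

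**Figure D3:**
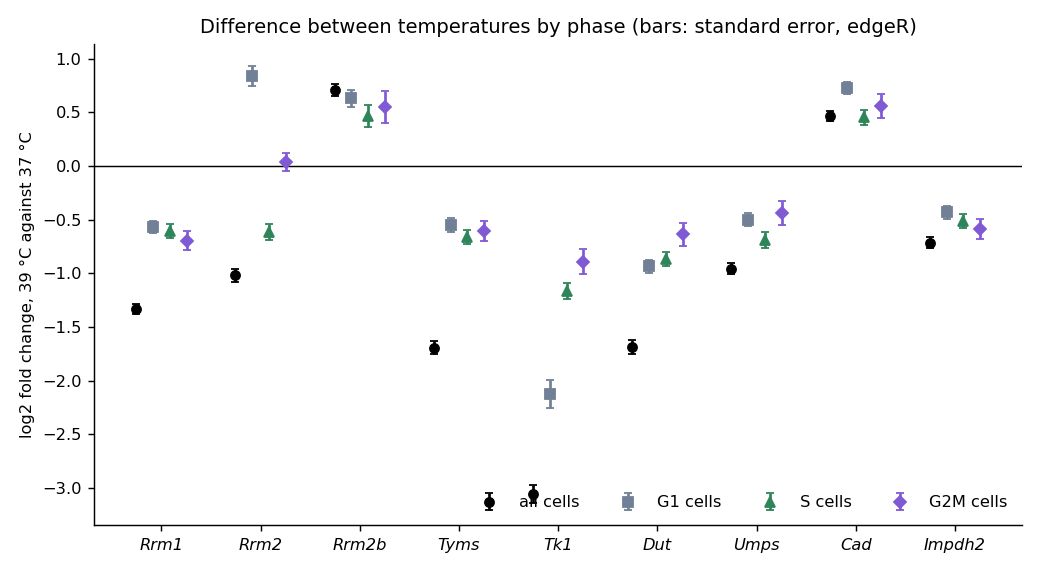
Log2 fold change of 39 °C against 37 °C (y axis) for each gene (x axis) in all kept cells and in G1, S and G2M cells; bars are the standard error of the edgeR test over 4 and 4 libraries. Rrm2 is at -1.02 in all cells, 0.84 in G1, -0.62 in S and 0.04 in G2M, while Cad and Rrm2b are above 0 and the other 6 below 0 in every set.

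Whether the difference between temperatures itself depended on phase was tested in 1 model over the 24 sums of 8 libraries and 3 phases, with the library as a factor. Rrm2 and Tk1 departed, in opposite ways. The log2 fold change of Rrm2 was lower in S than in G1 by 1.41 (difference -1.41 ± 0.10 SE, adjusted p = 5.97e-20) and lower in G2M than in G1 (-0.77, adjusted p = 1.29e-08). That of Tk1 was less negative in S (1.01 ± 0.15, adjusted p = 1.54e-07) and in G2M (1.29, adjusted p = 2.59e-09). Dut passed for G2M (0.34, adjusted p = 0.0219) but not without 37 °C replicate 3 (0.28, adjusted p = 0.0841), 39 °C replicate 3 (0.20, adjusted p = 0.387) or 39 °C replicate 4 (0.31, adjusted p = 0.11). Cad did not pass for S (-0.24, adjusted p = 0.0659), but passed without 37 °C replicate 2 (-0.28, adjusted p = 0.0418) or 39 °C replicate 1 (-0.35, adjusted p = 0.0022). Of all tested genes 10.5% passed for S against G1 and 7.35% for G2M against G1. With scores within each library 6 members passed for S and 5 for G2M, with Rrm2 (-1.76 and -1.21) and Tk1 (1.04 and 0.95) among them. The share of all tested genes that passed under those scores was not computed, so these 2 counts have no background.

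Giving every library the same mixture of phases, with equal weights for G1, S and G2M, left 8 of 9 genes apart. The standardised level of Rrm2 was 88.0 ± 5.32 CPM in the 37 °C libraries against 89.5 ± 9.36 CPM in the 39 °C libraries (SD, n = 4), 0.02 apart on the log2 scale (exact permutation over all 70 ways to assign the libraries, two-sided p = 0.83). With scores within each library that difference was -0.76 (exact permutation p = 0.0286). Tk1 was 75.7 ± 6.85 and 37.5 ± 3.50 CPM (-1.01), Dut 151 ± 6.29 and 89.0 ± 12.2 CPM (-0.77), and Cad 47.6 ± 2.21 and 75.5 ± 7.38 CPM (0.66). Rrm1 (-0.55), Tyms (-0.55), Umps (-0.49), Impdh2 (-0.46) and Rrm2b (0.59) kept the direction they had in all cells. With scores within each library these 8 directions held, and 5 differences moved by over 1.5 times: -2.55 for Tk1, -1.49 for Dut, -1.42 for Tyms, -1.14 for Rrm1 and -0.83 for Umps. Each of these 8 had an exact permutation p of 0.0286, the smallest that 4 libraries against 4 can give.

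The balance of the small subunit transcripts was measured as the ratio of Rrm2b to Rrm2 counts within a library, and protein was not measured. Its log2 value was -1.78, -2.22, -2.25 and -2.24 at 37 °C and -0.40, -0.21, -0.43 and -0.50 at 39 °C, so there were 0.211 to 0.292 counts of Rrm2b per count of Rrm2 at 37 °C and 0.709 to 0.862 at 39 °C. The difference was 1.73 (-2.12 ± 0.23 against -0.39 ± 0.12, SD, n = 4, exact permutation p = 0.0286). In S cells it was 1.09 (p = 0.0286, exact), and in G2M cells 0.41 with overlapping groups (exact permutation p = 0.114). Among G1 cells the ratio was 0.10 ± 0.31 and -0.11 ± 0.11 on the log2 scale (difference -0.21, exact permutation p = 0.314), since both subunits were higher there at 39 °C.

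The same genes were then read cell by cell, with each cell thinned to 3000 UMIs so that depth was equal. This left out 215 cells at 37 °C and 579 at 39 °C. A Tk1 UMI was seen in 16.6, 20.6, 22.1 and 22.2% of cells at 37 °C and in 3.41, 2.34, 2.34 and 3.26% at 39 °C. An Rrm2 UMI was seen in 20.1, 21.9, 23.5 and 22.6% and in 13.3, 12.2, 14.2 and 13.9%, and a Cad UMI in 13.4, 12.5, 14.0 and 13.0% and in 18.3, 18.1, 18.4 and 17.3%. The shares of all 9 genes differed without overlap in the direction of their levels (exact permutation p = 0.0286 each). Unthinned, the mean shares were 50.0 and 7.91% for Tk1, 52.7 and 35.3% for Rrm2 (exact permutation p = 0.0857) and 43.9 and 45.3% for Cad (p = 0.83, exact), and those of Rrm2b and Impdh2 did not pass either (exact permutation p = 0.286 and 0.0571). The cultures held no cell type that should lack these transcripts, so the share that free RNA gives is not known. Within the 39 °C libraries there were 13.1 to 16.8 counts of Rrm2 per count of Tk1 in G1 cells and 1.19 to 1.55 in S cells, and the part of free RNA in either was not tested.

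Most cells with an Rrm2 UMI were in S or G2M at 37 °C and in G1 at 39 °C. At 37 °C, 11.0, 5.93, 7.14 and 6.54% of them were in G1 and the rest in S and G2M. At 39 °C, 72.9, 76.5, 78.1 and 70.1% were in G1. Of the cells with a Tk1 UMI, 3.77 to 5.88% were in G1 at 37 °C and 21.0 to 30.4% at 39 °C, where 84.1% of all cells were in G1. Within G1 the share of cells with an Rrm2 UMI was 5.56 to 7.95% at 37 °C and 11.0 to 13.2% at 39 °C, and the share with a Tk1 UMI was 3.52 to 4.91% and 0.578 to 1.20%.

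**Figure D4:**
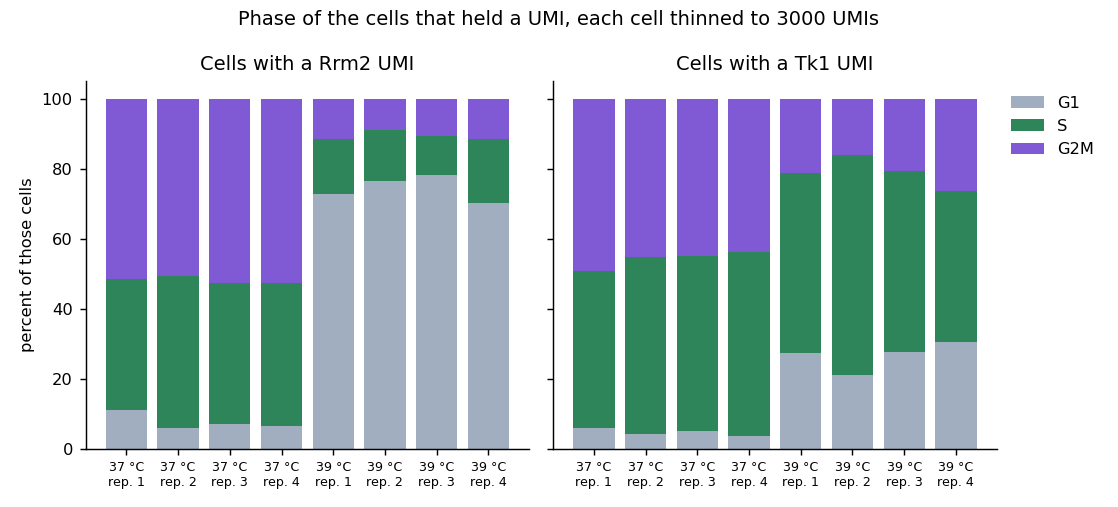
Percent (y axis, from 0) of the cells with an Rrm2 UMI (left) and with a Tk1 UMI (right) that were assigned to G1, S and G2M in each library, after thinning each cell to 3000 UMIs. G1 cells make up 70.1 to 78.1% of the cells with an Rrm2 UMI at 39 °C and 5.93 to 11.0% at 37 °C.

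Which other members were seen in the same cell as Rrm2 was also read from the thinned cells. At 37 °C the share of cells with a Tk1 UMI was 26.6 to 36.6% among cells with an Rrm2 UMI and 14.1 to 19.3% among those without, higher in all 4 libraries. In S cells alone it was higher by 11.8 to 21.1 percentage points, and for Tyms by 11.6 to 24.6 points. In S cells at 39 °C the differences for Tk1 ran from -6.85 to 8.16 points and for Tyms from -9.72 to 6.51 points, with 186 cells that held an Rrm2 UMI in all. Among G1 cells at 39 °C, 922 held an Rrm2 UMI, and 0 to 0.984% of these held a Tk1 UMI, below the 0.600 to 1.22% of the other G1 cells in all 4 libraries. A Cad UMI was seen in 19.3 to 22.3% of those 922 cells and in 16.6 to 17.8% of the others, higher in all 4 libraries. These are descriptions of shares of sparse counts, and no test was made of them.

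Counting Rrm1, Rrm2, Tyms, Tk1 and Dut together, 23.3 to 28.9% of the thinned cells at 37 °C held a UMI of none of the 5, against 56.7 to 59.2% at 39 °C. UMIs of 2 or more of them were seen in 37.1 to 44.3% and 9.72 to 12.4% of cells. All 5 were seen in 0.723 to 1.16% of cells at 37 °C, and at 39 °C in 0.0639% of cells of replicate 4 and in none of the other 3 libraries. The spread of UMIs over cells, as variance over mean, was 1.30 to 1.42 for Rrm2 and 1.12 to 1.27 for Tk1 at 37 °C, and 1.14 to 1.24 and 1.19 to 1.45 at 39 °C. For Rrm2b, at 0.0664 to 0.115 UMIs per cell, it was 0.994 to 1.07 over both temperatures, near the value of 1 that counting noise alone gives. This was not particular to Rrm2b: Rrm1 (0.999 to 1.09), Umps (0.972 to 1.115), Cad (1.01 to 1.11) and Impdh2 (1.02 to 1.08) lay close to 1 too. Tyms (1.04 to 1.25) and Dut (1.04 to 1.31) reached higher values.

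The other genes of nucleotide metabolism came from 11 lists with 72 genes beside the 9, of which 70 were tested in all cells. There 37 passed as lower and 19 as higher (median -0.26 on the log2 scale), against 30.5% and 31.5% of all tested genes. All 6 genes of purine synthesis up to IMP fell, led by Ppat, the amidotransferase of the first committed step (-1.02 ± 0.06), then Pfas (-0.78 ± 0.08) and Adsl (-0.55 ± 0.06). Of 6 genes that supply one-carbon units through folate, 5 fell. Mthfd2, the mitochondrial methylene-tetrahydrofolate dehydrogenase, fell from 48.9 ± 5.33 to 7.0 ± 0.649 CPM (-2.81 ± 0.08) and was the 1 gene of the 70 called lower, with Mthfd1l (-1.42 ± 0.08) and Shmt2 (-1.16 ± 0.07) next. A call as lower went to 3.62% of all tested genes.

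Beside Tyms, Tk1 and Dut, 2 further genes of thymidylate supply fell in all cells: Dtymk, the kinase that follows both routes to thymidylate (-1.33 ± 0.06), and Dctd, which makes dUMP from dCMP (-0.44 ± 0.08). In G1 cells Dtymk was lower at 39 °C (-0.71) and Dctd did not pass (0.03). Of the other pyrimidine genes, the CTP synthases Ctps (0.64 ± 0.05) and Ctps2 (0.44 ± 0.05) rose with Cad, and Dhodh, the step between Cad and Umps, fell (-0.52 ± 0.09). Of the 4 genes of PRPP synthesis, 1 fell (Prps1, -0.78 ± 0.06), 1 rose (Prps2, 0.34 ± 0.04) and 2 did not pass. Around Impdh2, Gmps (-0.53 ± 0.05), Impdh1 (-0.19 ± 0.06) and Adss (-0.15 ± 0.05) fell. Without 39 °C replicate 2 Impdh1 did not pass (-0.15, adjusted p = 0.0592), and neither did Adss after thinning (-0.11, adjusted p = 0.117).

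Of 12 salvage genes tested in all cells, 8 passed as higher and 2 as lower at 39 °C (median 0.31), against 31.5% and 30.5% of all tested genes. By phase 6 were higher and 1 lower in G1, 4 and 3 in S (median 0.03), and 4 and 2 in G2M. Of all tested genes 24.6% passed as higher and 22.4% as lower in G1, 20.3% and 23.3% in S, and 13.2% and 16.9% in G2M. Upp1, the uridine phosphorylase, rose from 2.29 ± 0.295 to 7.80 ± 0.758 CPM (1.76 ± 0.11) and was called. The other gene called higher was Dpyd, of pyrimidine breakdown (0.231 to 0.831 CPM, 1.84 ± 0.31), which lay under the level set for named genes and is given because of its value. A call as higher went to 2.21% of all tested genes. Tk2, the mitochondrial thymidine kinase, rose from 8.47 ± 0.316 to 16.5 ± 0.906 CPM (0.96 ± 0.06), opposite to the cytosolic Tk1. Uck2, a uridine and cytidine kinase, fell (-1.01 ± 0.06). Of 12 nucleotide kinases 7 fell and 2 rose, among them Nme1, lower (-1.24 ± 0.07), and Nme4, higher (0.90 ± 0.05). Of 16 genes of breakdown and pool cleaning 7 fell and 4 rose. Among those that fell were Samhd1, which degrades deoxynucleotides (-1.03 ± 0.05), Nt5c3b (-1.07 ± 0.05) and Dctpp1 (-0.99 ± 0.06). Of 4 nucleoside transporters 2 rose and 2 fell. Slc29a3 rose (0.71 ± 0.05), and so did Slc29a1 (0.19 ± 0.06), which did not pass without 37 °C replicate 1 (0.10, adjusted p = 0.0533).

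**Figure D5:**
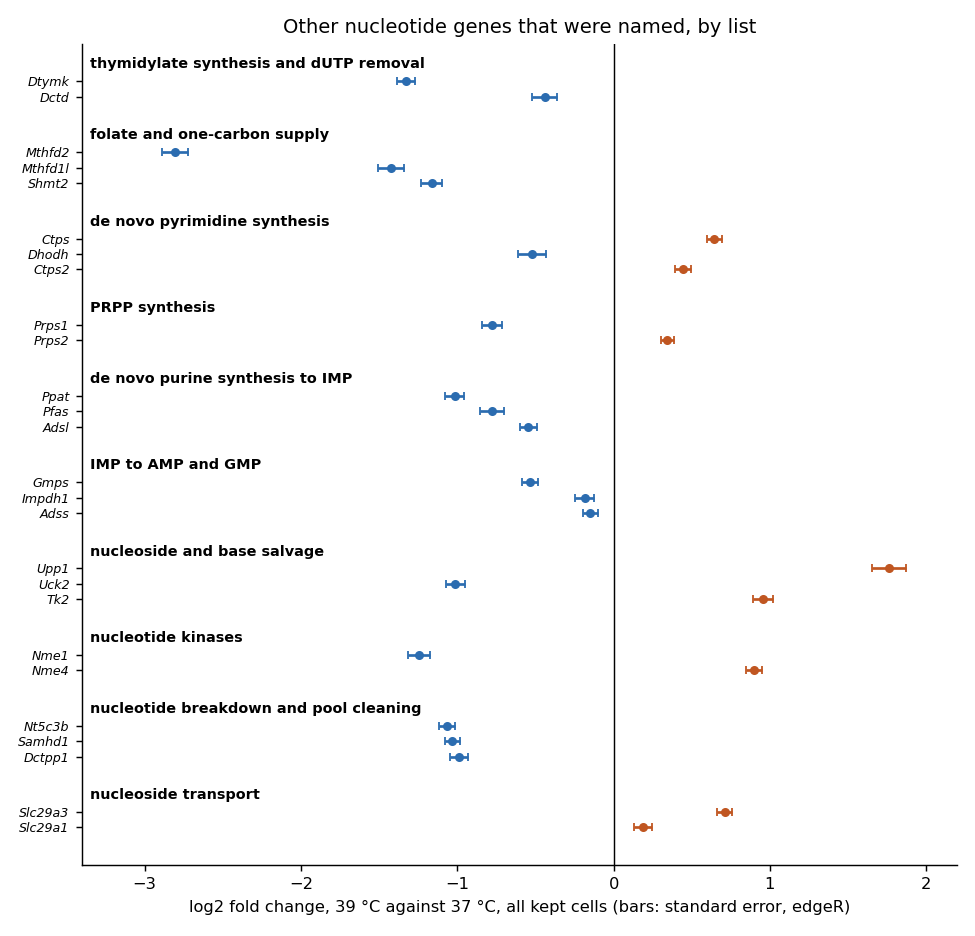
Log2 fold change of 39 °C against 37 °C in all kept cells (x axis; bars are the standard error of the edgeR test, 4 and 4 libraries) for the named genes of the other nucleotide lists (y axis). Purine and folate genes lie below 0 down to -2.81 for Mthfd2, and Upp1, Tk2, Nme4, Slc29a3 and the CTP synthases lie above 0.

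Genes with the most similar pattern were named by Pearson's r of log2 CPM over the 24 sums of 8 libraries and 3 phases, among 6394 other genes, as a description, since these sums share libraries and phases. For Rrm2 they were Fbxo5 (r = 0.965), Tbc1d31 (0.955) and Hmgb3 (0.948). For Rrm2b they were Prkce (0.907), Cast (0.899) and Zbtb43 (0.898), for Cad Ccp110 (0.944), Mybl1 (0.938) and Plekha7 (0.934), and for Impdh2 Manf (0.967), Cisd1 (0.966) and Pebp1 (0.960).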

How the data were processed

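Per the labels, cells were captured with the Chromium 3′ V3 kit, and the submitters' processing notes name Cell Ranger 3.0.1 and mm10. The authors deposited UMI counts per gene and cell as whole numbers, with no normalization. Cells with over 15% mitochondrial UMIs, under 200 genes or over 6000 genes were left out, which are the study's limits. Scrublet (scanpy 1.11.5) scored only 2 cells above 0.5, so it did not work for calling doublets, and none were removed. Phases came from Seurat 5.3.0 on all kept cells together, with 39 S genes after removing the 3 members, and 52 G2M genes.

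Counts were summed per library, or per library and phase, since cells are not replicates, and each gene that averaged 1 count or more was tested with edgeR 4.0.16 (R 4.3.3; TMM, glmQLFit, glmQLFTest; temperature as the single term). The standard error is the log2 fold change over the square root of F. CPM are per 1000000 counts of tested genes with TMM-scaled totals. For shares, ratios and standardised levels an exact permutation test was used (two-sided; Python 3.11.15, scipy 1.17.1), with no adjustment. The scripts were tested on simulated data. Libraries held 17166686 to 29633818 UMIs in kept cells, which limits the precision of low genes and of G2M cells at 39 °C most. The limits for a call are those the study used for its bulk RNA.

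All 9 genes are named. In each pathway list up to 3 other genes were named, those with the largest fold change among genes that passed and had at least 5 CPM in the higher group, plus Cdkn1a, Mdm2, Ccng1, Mcm2, Pcna and Cdc6. Similar genes had a mean of at least 20 CPM. The 9 genes, the lists and the tests were chosen with earlier results of these data known. Positions are from GENCODE M21 (GRCm38, the assembly that mm10 names). The neuronal, dopaminergic and glial marker lists had 3 of 8, 4 of 9 and 2 of 8 genes at 1 CPM. Alternatives were other scalings (RLE, upper quartile, totals), low-count filters, DESeq2 1.42.0, a replicate block, cell filters, thinning to 2000, 3000 or 5000 UMIs, other phase assignments and each library left out in turn. Viral T antigen was not analysed here. A few genes named by this rule are not reported here.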

Additional observations from a re-analysis of the deposited data

Results flagged for a closer look

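The difference between temperatures departed between phases for 3 genes by a test of the difference itself. For S against G1 the difference of log2 fold changes was -1.41 for Rrm2 and 1.01 for Tk1, and for G2M against G1 it was -0.77 for Rrm2, 1.29 for Tk1 and 0.34 for Dut. Single libraries stood far from the other 3 of their group in 6 of 72 groups, where chance gives about 1 in 20. In all cells these were Rrm2b in 37 °C replicate 1 (26.4 CPM, others 22 to 22.3) and Cad in 39 °C replicate 2 (70.7 CPM, others 67.1 to 67.4). In S cells it was Umps in 39 °C replicate 4 (51.4 CPM, others 57.4 to 58.7). In G2M cells they were Rrm2 (135 CPM, others 147 to 148) and Tyms (146 CPM, others 163 to 166) in 37 °C replicate 1, and Umps in 39 °C replicate 4 (52.2 CPM, others 46.3 to 46.7).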

How the results depend on the processing

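In all cells, all alternatives left 7 members lower and 2 higher, and the log2 fold changes ran from -3.15 to -2.96 for Tk1, -1.09 to -0.91 for Rrm2, 0.66 to 0.76 for Rrm2b and 0.43 to 0.51 for Cad. Phase assignment mattered most. With scores within each library, members called lower numbered 3 in S and 2 in G2M (0 with joint scores), members that passed for the phase dependence 6 (S) and 5 (G2M), and Rrm2 in G2M turned to -0.82 and its phase-standardised difference to -0.76. Calls over all tested genes rose there too, from 133 to 336 lower in S and from 107 to 439 lower in G2M. For the phase dependence, the share over all tested genes was not computed with those scores. The phase dependence also turned sign there for Rrm1 (-0.16) and Dut (-0.22) in S, Rrm2b (0.038 in S, 0.071 in G2M), and Tyms (-0.38) and Dut (-0.057) in G2M. The cause was not tested. Small differences turned sign elsewhere: Rrm2 in G2M at a mitochondrial limit of 10% (-0.054), standardised Rrm2 at the 37 °C phase weights (-0.035), the phase dependence of Rrm1 in S with no upper gene limit (-0.061), of Tyms (0.0042) and Impdh2 (0.031) in S and Rrm2b in G2M (0.022) with totals alone, and of Tyms in G2M with the full lists (-0.14). Restricted to G1, the log2 ratio of Rrm2b to Rrm2 differed by -0.21. Thinning left 1 member higher in S and 1 in G2M, since Rrm2b did not pass there (0.33 and 0.30, from 0.47 and 0.55; the cause was not tested), and without thinning 0 shares were higher by the test.

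Leaving out 1 library gave 1 to 2 members higher in G2M, a ratio difference of 1.68 to 1.85, Rrm2 in G2M at -0.014 to 0.13 and standardised Rrm2 at -0.033 to 0.091. Phase dependence then ran from -0.065 to 0.036 (Rrm1, S), -0.29 to 0.047 (Rrm2b, G2M) and -0.091 to 0.041 (Tyms, G2M). Replicate numbers did not pair the libraries (correlations of deviations -0.131, -0.12, -0.119 and 0.33 over 6397 genes). With the replicate number as a block, 0 of 92 values or counts changed side or direction, and members passed in all cells were 7 lower and 2 higher. Of 2002 single-gene values under alternatives, 1949 kept direction and side. Depth limits G2M at 39 °C most.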

Other observations

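Genes known as p53 targets and as E2F targets were set beside the nucleotide genes. Of 10 p53 targets 9 rose in all cells at 39 °C, where 31.5% of all tested genes passed as higher, among them Btg2 (1.20 ± 0.08), Trp53inp1 (1.01 ± 0.06), Cdkn1a, the inhibitor of cyclin-dependent kinases (1263 to 2209.7 CPM, 0.81 ± 0.06), Mdm2, the ligase that degrades p53 (678 to 1160.3 CPM, 0.77 ± 0.05), and Ccng1 (0.36 ± 0.05). Rrm2b, at 0.71, lay within this range, as did Ctps (0.64) and Tk2 (0.96). A link of any of them to p53 was not tested. In G1 cells 9 of 10 rose, where 24.6% of genes did. Of 13 E2F targets all fell in all cells and 7 were called, where 30.5% of genes passed as lower and 3.62% were called lower. Ccne1, the cyclin of the entry into S, fell furthest (19.0 to 0.991 CPM, -4.25 ± 0.13), then Cdc6 (-2.80 ± 0.08) and Uhrf1 (-2.61 ± 0.07). Pcna (-1.28 ± 0.06) and Mcm2 (-1.21 ± 0.05) fell less, and the smallest fall of the 13 was -0.39 (median -1.56). In G1 cells 12 of 13 fell and 1 rose (22.4% of genes passed as lower), in S cells 11 fell and 2 did not pass (23.3%), and in G2M cells 3 fell, 2 rose and 8 did not pass, with a median of 0.04 and none called (16.9%). Several of these genes are in the S list that assigned the phases.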
